A study of Rattus norvegicus with 72 samples.

Results

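The genes described here encode the subunits of the proteasome, the barrel-shaped protease that degrades ubiquitin-tagged proteins, together with its regulators and assembly factors. They were taken as every array probe whose gene symbol in the platform annotation begins with Psma, Psmb, Psmc, Psmd, Psme, Psmf or Psmg, and probes with the same symbol were averaged. This gave 41 genes from 46 probes, out of 9653 named genes and 20500 probes on the array. All 41 passed the requirement of values from at least 2 rats in each group. By role they were 6 alpha-ring and 7 constitutive beta-ring subunits of the 20S core, 3 immunoproteasome beta subunits, 6 ATPases, 2 other base subunits and 6 lid subunits of the 19S regulator, 4 activators, 1 inhibitor and 5 assembly chaperones. The remaining gene, Psmc3ip, was caught by its prefix alone: its product is a meiotic recombination factor and no part of the proteasome. Psma7, Psma8, Psmb11, Psmd1, Psmd11, Psmd14, Psmg1 and Psmg3 were not analysed here.

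RNA of the left liver lobes was measured on 72 two-colour arrays from 36 rats given acetaminophen in methyl cellulose by gavage. The 12 groups of 3 rats combine the doses 50, 150, 1500 and 2000 mg/kg with the times 6, 24 and 48 h. The titles write mg for most groups and mg/kg for some of those at 150, and all were read as mg/kg. The reference was RNA of vehicle-gavaged rats, pooled per dose and time according to the protocols. The titles call it a pool for 10 groups and a mock control for 150 mg/kg at 6 h. For 150 mg/kg at 24 h they name a mock control in one dye orientation and a sham control in the other. The sources used here do not give strain, sex or age. Dyes were exchanged between the 2 arrays of a rat. Values below are the mean of both on the log2 scale, positive where treated liver held more of the RNA than its control. The labels do not state that the deposited ratio is red over green. This is likely from the convention of the scanner software, and if it were the other way round every sign given here would turn. Whole liver was sampled, so fewer cells of a type and less RNA per cell cannot be told apart. The arrays give ratios only here, so no level in the control liver and no order of levels between genes can be stated.

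The 20S core is a stack of rings: alpha subunits close its ends, and the beta subunits Psmb5, Psmb6 and Psmb7 carry the cutting sites. Interferon-inducible subunits, Psmb8, Psmb9 and Psmb10, can replace those 3 and form the immunoproteasome, which favours peptides for antigen presentation. The 19S regulator caps the core; its base holds a ring of ATPases that unfold the substrate, and its lid removes ubiquitin chains. Psme1 and Psme2 form another cap, also inducible by interferon. When proteasome capacity falls short, the transcription factor Nfe2l1 is known to raise the subunit genes together through antioxidant response elements in their promoters, and the related Nfe2l2 acts on such elements in liver cells exposed to reactive metabolites. Acetaminophen is converted in the liver to such a metabolite.

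Of the 41 genes, 39 had a full-length promoter window around the annotated start in the RefSeq table of build GRCr8. The core of the antioxidant response element, TGACNNNGC, was searched on both strands and was found in 7 of these 39 (17.9%), against 12.7% of 18999 promoters of coding genes. It stood in 5 of the 25 promoters of constitutive 20S and 19S subunits, those of Psma3, Psmb2, Psmb5, Psmb6 and Psmd3, and in those of Psmd9 and Psme4. An interferon-type element, written as GAAA, 2 bases of any kind and GAAA and searched the same way, was found in 7 of 39 (17.9%), against 3.63% of all promoters. Of the 5 interferon-inducible genes Psmb8, Psmb9, Psmb10, Psme1 and Psme2, 3 held it. The other 4 matches were in Psma4, Psmb3, Psmd7 and Psmg4. No match to one motif overlapped a match to the other (0 in these promoters). A match describes letters and does not show a site in use. The promoters of the 3 interferon-inducible genes with a match are shown because 1 of the 3, Psmb10, differed from the other two in the liver. The promoters of Psma3 and Psmb5 are shown because the RNAs of both were higher at 24 h and only that of Psma3 was also called at 48 h. Each runs 5′ to 3′ on the gene's strand from 150 bases before to 10 bases after the annotated start, with the motif in capitals. Psmb8 is at chr20:4657022-4657181 (minus strand), Psmb10 at chr19:50743283-50743442 (minus strand), Psme2 at chr15:33052742-33052901 (minus strand), Psma3 at chr6:95219599-95219758 (plus strand) and Psmb5 at chr15:32047370-32047529 (minus strand), in GRCr8.
Psmb8: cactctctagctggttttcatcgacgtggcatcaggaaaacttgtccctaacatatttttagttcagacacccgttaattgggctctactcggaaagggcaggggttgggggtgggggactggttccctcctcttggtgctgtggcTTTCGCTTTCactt
Psmb10: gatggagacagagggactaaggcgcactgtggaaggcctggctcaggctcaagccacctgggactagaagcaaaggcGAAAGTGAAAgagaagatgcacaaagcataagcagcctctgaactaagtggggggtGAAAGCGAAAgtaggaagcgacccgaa
Psme2: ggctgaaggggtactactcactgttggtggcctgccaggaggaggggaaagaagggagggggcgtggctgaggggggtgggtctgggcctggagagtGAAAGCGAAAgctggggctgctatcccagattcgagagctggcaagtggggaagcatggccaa
Psma3: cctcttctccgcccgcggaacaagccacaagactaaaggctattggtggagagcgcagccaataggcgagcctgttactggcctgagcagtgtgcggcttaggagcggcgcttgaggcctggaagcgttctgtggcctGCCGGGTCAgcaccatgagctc
Psmb5: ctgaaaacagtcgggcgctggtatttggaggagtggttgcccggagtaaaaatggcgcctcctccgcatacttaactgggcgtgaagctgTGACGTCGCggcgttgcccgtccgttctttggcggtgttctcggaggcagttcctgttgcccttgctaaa
Counted from the annotated start, the matches of Psmb10 began at positions -73 and -17, that of Psme2 at -53 and that of Psmb8, on the other strand, at -4. The element of Psma3 was on the other strand and began at -12, and that of Psmb5 began at -60.

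Between 10 and 22 of the 41 genes were called higher than control in each of the 4 groups at 1500 and 2000 mg/kg at 24 and 48 h, and at most 3 were called in any group at 6 h. A gene was called when its limma adjusted p was below 0.05 and its change at least 1.5-fold, with p-values adjusted over all 17299 features tested. At 6 h, 0 of 41 genes were called at 50 mg/kg, where 1.36% of all features were called higher and 0.0578% lower. There 6 genes had an unadjusted p below 0.05, as had 2449 of the 17299 features. At 150 mg/kg and 6 h it was also 0 of 41, against 0.0231% of features higher and 0.0116% lower. Unadjusted p fell below 0.05 for 6 genes and for 1374 of the 17299 features. At 1500 mg/kg and 6 h, 0 genes were higher (4.21% of features) and 1 was lower (2.82%). Unadjusted p fell below 0.05 for 11 genes and for 7052 of the 17299 features. At 2000 mg/kg and 6 h, 3 genes were higher (5.11%) and 0 lower (2.85%). The 6 h counts of called genes were therefore near the background or below it.

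At 24 h the shares parted from the background in the upper doses. At 50 mg/kg and 24 h, 0 of 41 genes were called, against 2.09% of features higher and 1.46% lower. Unadjusted p fell below 0.05 for 17 genes and for 5529 of 17299 features. Without the minimum fold, 12 genes were higher there, against 9.5% of features. At 150 mg/kg and 24 h, 0 of 41 were called (0.0925% of features higher, 0.052% lower). Unadjusted p fell below 0.05 for 9 genes and for 977 of 17299 features. At 1500 mg/kg and 24 h, 10 genes were higher, against 7.14% of features, and 0 lower, against 2.75%. Without the minimum fold 29 of the 41 were higher, against 18.3% of features. At 2000 mg/kg and 24 h, 22 genes were higher, against 10.3% of features, and 0 lower, against 4.43%. Here 32 of 41 were higher by adjusted p alone, against 24.1% of features.

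At 48 h, 3 of 41 genes were called higher at 50 mg/kg (2.2% of features) and 0 lower (1.76%), and adjusted p alone marked 15 as higher (10.3%). At 150 mg/kg and 48 h, 2 genes were higher (1.38%) and 0 lower (0.104%). At 1500 mg/kg and 48 h, 22 genes were higher, against 13.3% of features, and 0 lower, against 5.42%. Ignoring fold size, 32 were higher there, against 26.3% of features. At 2000 mg/kg and 48 h, 15 genes were higher (12.8% of features) and 1 was lower (9.17%), and 30 were higher by adjusted p alone (27.3%). Psma1, Psma3, Psmc4, Psmc5 and Psmd7 were called higher in all 4 groups at 1500 and 2000 mg/kg at 24 and 48 h. Psmb2, Psmb6, Psmb10, Psmc3, Psmd2, Psmd3, Psmd10, Psme3, Psme4, Psmf1 and Psmg2, 11 genes, were called in none of the 12 groups. Most changes were below 2-fold, close to the minimum fold, so that counts of called genes moved with small shifts in size. When all arrays were scaled to equal spread, the 24 h counts became 2 at 50 mg/kg, 2 at 150 mg/kg, 2 at 1500 mg/kg and 10 at 2000 mg/kg, so that the count at 1500 mg/kg equalled those at the lower doses. The shares of all features, both directions together, were then 3.41%, 3.26%, 5.39% and 6.53%, and 2 of 41 is near that background. Without scaling these shares were 3.55%, 0.145%, 9.89% and 14.8%. The scaling divides each array by its own spread, and these spreads differed by up to 4.92-fold. Counts drawn together between doses therefore follow in part from the setting. At 48 h the scaled counts were 6, 6, 11 and 10 from the lowest to the highest dose, with 4.82%, 3.16%, 10.8% and 14.2% of features called.

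**Figure D1:**
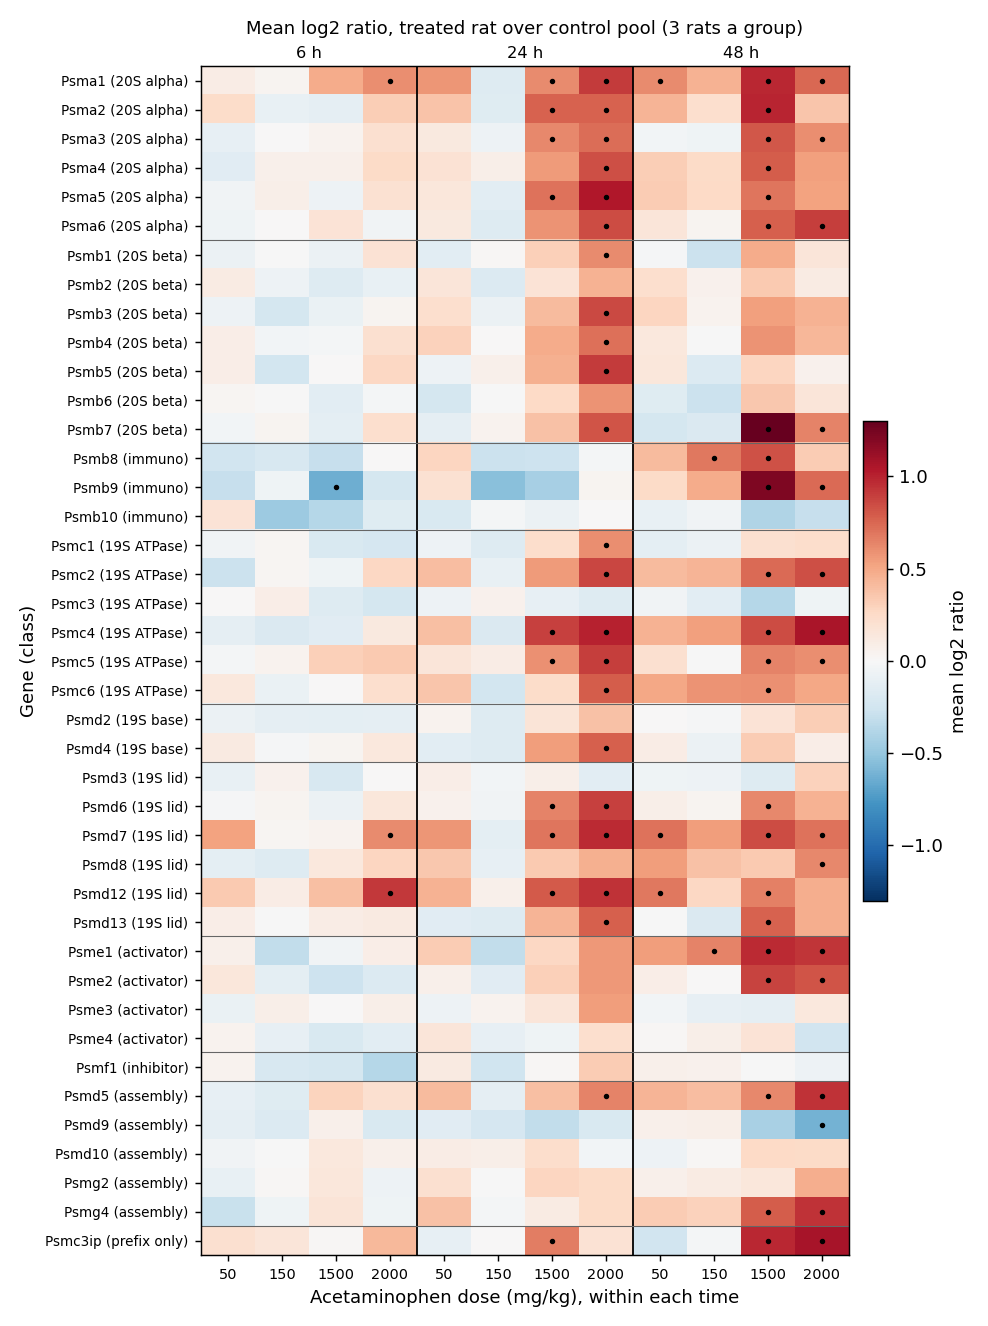
Mean log2 ratio of treated rat over control (colour scale, 3 rats a group) for the 41 genes, down the page by class, in the 12 groups, across by time and then by dose in mg/kg. Black points mark called genes: 22 were called higher at 2000 mg/kg at 24 h and 22 at 1500 mg/kg at 48 h, and lower genes were Psmb9 at 1500 mg/kg at 6 h and Psmd9 at 2000 mg/kg at 48 h.

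The 27 constitutive 20S and 19S subunits were summarised by their median in each rat. At 2000 mg/kg and 6 h it was 0.10, 0.22 and 0.23 in the 3 rats. At 24 h it was 0.25, 0.13 and 0.10 at 50 mg/kg, -0.09, -0.08 and -0.06 at 150 mg/kg, 0.64, 0.65 and 0.21 at 1500 mg/kg, and 0.58, 0.82 and 0.93 at 2000 mg/kg. At 48 h it was 0.17, 0.07 and 0.30 at 50 mg/kg, -0.07, 0.03 and 0.06 at 150 mg/kg, 0.62, 0.68 and 0.50 at 1500 mg/kg, and 0.33, 0.25 and 0.81 at 2000 mg/kg. The median of all features lay between -0.06 and 0.01 in each of the 36 rats. A single rat stood apart in each of 2 upper groups: rat 3020 was low at 1500 mg/kg and 24 h, and rat 3119 was high at 2000 mg/kg and 48 h. Without rat 3020 the called genes of its group numbered 17 in place of 10, and without rat 3019 they numbered 6. Without rat 3119 the count at 2000 mg/kg and 48 h was 11 in place of 16, and without rat 3118 it was 21.

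**Figure D2:**
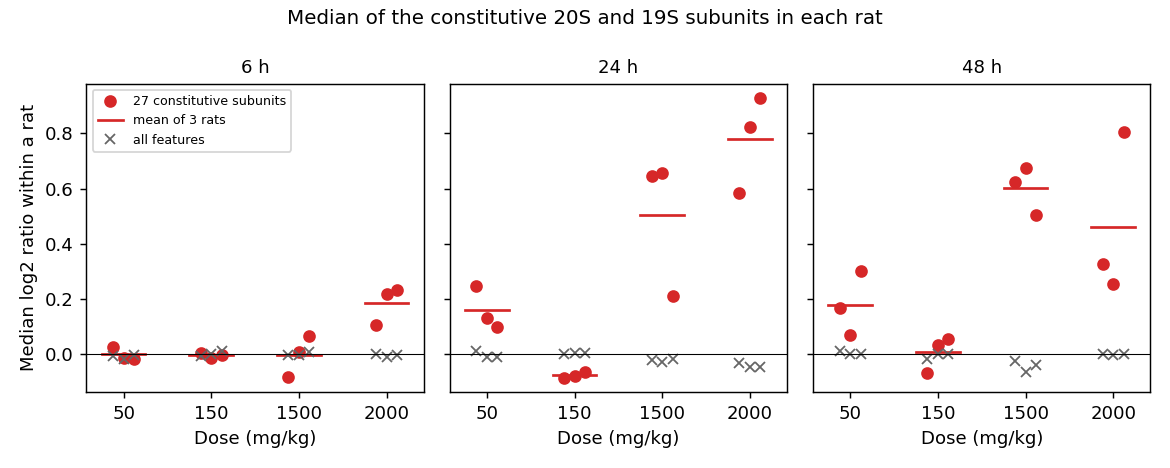
Median log2 ratio (vertical axis) of the 27 constitutive 20S and 19S subunits in each rat (red points, with the group mean as a bar) and of all features (grey crosses), by dose in mg/kg within each time. The 6 rats at 1500 and 2000 mg/kg lie between 0.21 and 0.93 at 24 h and between 0.25 and 0.81 at 48 h, while the crosses stay near 0.

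The upper doses were then set against the lower ones, with 1500 and 2000 mg/kg averaged as the upper level, 50 and 150 mg/kg as the lower level, and 6 rats on each side at a given time. Such a difference also holds any difference between the control pools. At 6 h, 0 of 41 genes were called, against 4.67% of features higher and 3.46% lower. There 13 genes had an unadjusted p below 0.05, as had 7369 of 17299 features. At 24 h, 13 genes were higher, against 6.56% of features, and 0 lower, against 3.37%. By adjusted p alone 31 were higher, against 17.3% of features. At 48 h, 7 genes were higher (8.26% of features) and 1 was lower (4.09%), and 27 were higher by adjusted p alone, against 19.2% of features. The median difference of the 27 constitutive subunits was 0.06 at 6 h, 0.57 at 24 h and 0.33 at 48 h, with medians over all features of -0.00, -0.02 and -0.03. At 24 h, 14 of 41 genes had all 6 upper-dose rats above all 6 lower-dose rats, against 6.27% of features. This held for 11 genes at 48 h (9.73% of features) and for 1 gene, the lid subunit Psmd8, at 6 h (6.58%). With arrays scaled to equal spread, the called genes numbered 5 at 24 h and 3 at 48 h, against 6.01% and 7.45% of features in both directions together, so that the 48 h count was near that background.

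**Figure D3:**
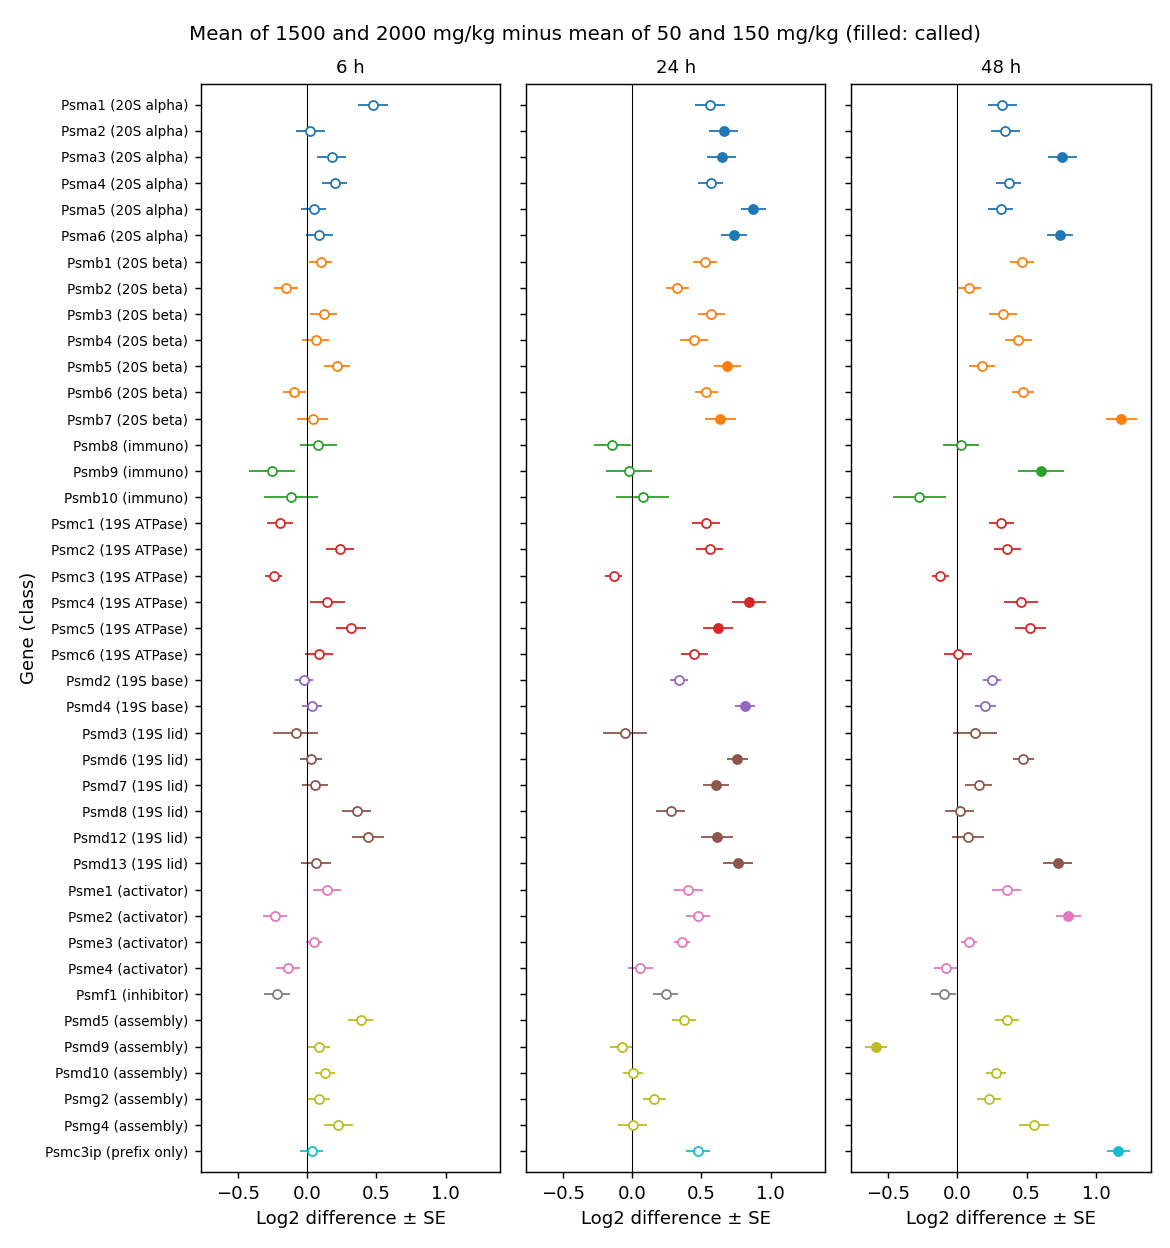
Log2 difference between the upper doses (1500 and 2000 mg/kg) and the lower doses (50 and 150 mg/kg) with the standard error of the model, for each of the 41 genes at 6, 24 and 48 h. Filled points are called: 0 at 6 h, 13 at 24 h and 8 at 48 h, and at 24 h all constitutive genes but Psmc3 and Psmd3 lie to the right of 0.

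Among the alpha-ring subunits, which form the gated ends of the 20S core, all 6 were higher at 24 h by adjusted p alone and 4 were called (Psma2, Psma3, Psma5 and Psma6). Psma5 changed most. Its ratios were 0.95, 0.74 and 0.43 in the rats at 1500 mg/kg and 24 h and 0.81, 1.04 and 1.28 at 2000 mg/kg and 24 h, against 0.25, 0.10 and 0.09 at 50 mg/kg and -0.13, -0.08 and -0.20 at 150 mg/kg. The upper and lower doses did not overlap, and the difference was 0.87 ± 0.09 (SE; 1.83-fold, adjusted p = 2.44e-08). At 48 h its upper-dose rats lay between 0.25 and 0.91, overlapping the lower-dose range of 0.19 to 0.44, and it was not called.

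Psma6 was higher at both times. At 24 h it had 0.68, 0.77 and 0.30 at 1500 mg/kg and 0.70, 0.91 and 0.93 at 2000 mg/kg, against 0.13, 0.16 and 0.09 at 50 mg/kg and -0.10, -0.18 and -0.22 at 150 mg/kg. At 48 h it had 0.81, 0.85 and 0.66 at 1500 mg/kg and 0.76, 0.61 and 1.32 at 2000 mg/kg, against 0.15, 0.02 and 0.30 at 50 mg/kg and -0.07, 0.12 and 0.06 at 150 mg/kg. The doses did not overlap at either time, and the differences were 0.73 ± 0.10 at 24 h (adjusted p = 8.77e-07) and 0.74 ± 0.10 at 48 h (adjusted p = 6.09e-07). Psma3 had the largest alpha-ring difference at 48 h, 0.76 ± 0.10 (1.69-fold, adjusted p = 1.86e-06). Its 6 upper-dose rats ran from 0.33 through a median of 0.77 to 1.13, and its lower-dose rats from -0.20 through -0.04 to 0.07. The 1.13 belonged to rat 3119, and the other 2 rats of that group had 0.33 and 0.36.

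In the constitutive beta ring all 7 genes were higher at 24 h by adjusted p alone, and the catalytic subunits Psmb5 (chymotrypsin-like) and Psmb7 (trypsin-like) were called. Psmb5 had 0.79, 0.45 and 0.15 at 1500 mg/kg and 24 h and 0.73, 0.94 and 1.07 at 2000 mg/kg and 24 h, against 0.11, -0.11 and -0.20 at 50 mg/kg and -0.08, 0.06 and 0.23 at 150 mg/kg. Only the lowest upper-dose rat fell within the lower-dose range, and the difference was 0.69 ± 0.09 (adjusted p = 1.9e-06). At 48 h Psmb5 ran from -0.14 to 0.36 in the upper-dose rats and from -0.21 to 0.32 in the lower-dose rats, and its difference of 0.18 ± 0.09 did not pass the test (adjusted p = 0.129).

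Psmb7 had the largest difference of any proteasome subunit at 48 h. Its ratios at 48 h were 0.97, 1.34 and 1.60 at 1500 mg/kg and 0.72, 0.50 and 0.72 at 2000 mg/kg, against -0.29, -0.26 and -0.13 at 50 mg/kg and -0.21, -0.16 and -0.20 at 150 mg/kg. All upper-dose rats stood above all lower-dose rats, by 1.18 ± 0.11 (2.27-fold, adjusted p = 3.32e-09). At 24 h its difference was 0.64 ± 0.11 (adjusted p = 5.76e-05), and without rat 3019 or rat 3106 it was 0.56 or 0.58, below 1.5-fold. Psmb6, the caspase-like subunit, had 0.53 ± 0.08 at 24 h and 0.47 ± 0.08 at 48 h, with no overlap between the doses at either time, and stayed below the minimum fold. Psmb2 had the smallest differences of the ring, 0.33 ± 0.09 at 24 h and 0.09 ± 0.09 at 48 h.

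Of the 6 ATPases of the 19S base, which thread substrates into the core, 5 were higher at 24 h by adjusted p alone, and Psmc4 and Psmc5 were called. Psmc4 had 0.97, 1.12 and 0.57 at 1500 mg/kg and 24 h and 0.83, 1.14 and 1.04 at 2000 mg/kg and 24 h, against 0.50, 0.48 and 0.20 at 50 mg/kg and -0.32, -0.11 and -0.13 at 150 mg/kg. The doses did not overlap and the difference was 0.84 ± 0.12 (1.79-fold, adjusted p = 4.78e-06). At 48 h its upper-dose rats lay between 0.70 and 1.62, above a lower-dose range of 0.36 to 0.64 that was itself above 0 in every rat. One rat at 150 mg/kg and 6 h had no value for this gene, so that group's mean rests on 2 rats.

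Psmc5 had 0.61, 0.65 and 0.53 at 1500 mg/kg and 24 h and 0.81, 0.95 and 0.93 at 2000 mg/kg and 24 h, against 0.09, 0.18 and 0.21 at 50 mg/kg and 0.02, 0.07 and 0.19 at 150 mg/kg. The difference was 0.62 ± 0.11 (adjusted p = 6.29e-05). Psmc3 was the exception in this ring. It averaged -0.11 ± 0.12 at 1500 mg/kg and -0.17 ± 0.12 at 2000 mg/kg at 24 h, and -0.37 ± 0.05 and -0.06 ± 0.02 at 48 h (SD, n = 3 each), and its dose difference at 24 h was -0.13 ± 0.06 (adjusted p = 0.0964).

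In the rest of the base, Psmd4, a receptor for ubiquitin chains, was higher at 24 h and less so at 48 h. It had 0.68, 0.59 and 0.37 at 1500 mg/kg and 24 h and 0.58, 0.80 and 0.94 at 2000 mg/kg and 24 h, against -0.13, -0.19 and -0.08 at 50 mg/kg and -0.22, -0.23 and -0.06 at 150 mg/kg. The doses did not overlap and differed by 0.81 ± 0.07 (1.76-fold, adjusted p = 1.82e-09). At 48 h the upper-dose rats ran from -0.07 through 0.21 to 0.49 and the lower-dose rats from -0.13 through -0.04 to 0.17. That difference of 0.20 ± 0.07 was higher by adjusted p alone and stayed below the minimum fold. The dose difference was smaller by 0.61 ± 0.10 at 48 h than at 24 h (log2 -0.61, adjusted p = 0.000233), and without rat 3018, 3107, 3006 or 3118 that change was -0.58 to -0.56, below 1.5-fold. Psmd2, the large scaffold of the base, had 0.34 ± 0.06 at 24 h as the mean of 2 probes that disagreed: one gave -0.01 and the other 0.68.

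In the lid, 4 of 6 subunits were called at 24 h (Psmd6, Psmd7, Psmd12 and Psmd13) and 1 at 48 h (Psmd13). Psmd13 had 0.62, 0.67 and 0.02 at 1500 mg/kg and 24 h and 0.54, 0.96 and 0.83 at 2000 mg/kg and 24 h, against -0.02, -0.29 and -0.12 at 50 mg/kg and -0.14, -0.16 and -0.19 at 150 mg/kg. The low value of 0.02 was that of rat 3020. The dose difference was 0.76 ± 0.11 at 24 h (1.7-fold, adjusted p = 2.67e-06) and 0.72 ± 0.11 at 48 h (adjusted p = 4.73e-06). Psmd6 had 0.84, 0.72 and 0.37 at 1500 mg/kg and 24 h and 0.73, 0.91 and 1.02 at 2000 mg/kg and 24 h, against 0.03, 0.08 and 0.06 at 50 mg/kg and -0.09, -0.03 and -0.02 at 150 mg/kg. These doses were wide apart relative to the rats' spread, with a difference of 0.76 ± 0.08 (1.69-fold, adjusted p = 1.31e-08).

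Psmd3, the lid's scaffold subunit, did not follow. Its group means at 1500 and 2000 mg/kg were 0.08 and -0.14 at 24 h and -0.17 and 0.30 at 48 h, and its dose differences were -0.05 ± 0.16 at 24 h (adjusted p = 0.843) and 0.13 ± 0.16 at 48 h (adjusted p = 0.568). Its standard error was the largest of the lid genes.

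The immunoproteasome subunits had another time course. None of the 3 was called between dose levels at 24 h, where Psmb8 had -0.14 ± 0.13, Psmb9 -0.02 ± 0.17 and Psmb10 0.07 ± 0.19, while all 7 constitutive beta genes were above 0. Between 24 and 48 h at the upper doses, Psmb9 rose by 1.17 ± 0.17 (2.25-fold, adjusted p = 5.76e-06) and Psmb8 by 0.72 ± 0.13 (1.65-fold, adjusted p = 0.000142). At 150 mg/kg the mean of Psmb9 went from -0.55 at 24 h to 0.48 at 48 h, and that of Psmb8 from -0.28 to 0.69. At 50 mg/kg they went from 0.19 to 0.25 and from 0.28 to 0.41. The change of the dose difference between these times passed for 0 of the 3 genes, with or without the minimum fold. Psmb9 had 1.04, 1.56 and 1.03 at 1500 mg/kg and 48 h and 0.58, 0.32 and 1.29 at 2000 mg/kg and 48 h. At 24 h the same doses had given 0.03, -0.69 and -0.62 at 1500 mg/kg and 0.23, -0.60 and 0.46 at 2000 mg/kg. At 6 h and 1500 mg/kg Psmb9 had been lower than control, with -0.93, -0.54 and -0.44 (mean -0.64 ± 0.26, SD, n = 3; adjusted p = 0.0054). That call was lost without rat 3030 (-0.49, adjusted p = 0.0521).

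Psmb8 at 48 h was above control in the rats of the lower doses too. It had 0.53, 0.10 and 0.62 at 50 mg/kg, 0.31, 0.82 and 0.93 at 150 mg/kg, 0.77, 1.05 and 0.67 at 1500 mg/kg, and 0.17, 0.07 and 0.74 at 2000 mg/kg, all at 48 h. It was called at 150 mg/kg (0.69 ± 0.33, SD, n = 3; adjusted p = 0.00139) and at 1500 mg/kg (0.83 ± 0.20, SD, n = 3; adjusted p = 6.17e-06). The upper-minus-lower difference at 48 h was 0.03 ± 0.13 (adjusted p = 0.896). The 150 mg/kg call was lost without rat 3059 (0.57, adjusted p = 0.0647). For Psmb9 the 48 h dose difference was 0.60 ± 0.17 (1.52-fold, adjusted p = 0.00449), with overlapping ranges of 0.32 to 1.56 in upper-dose and 0.07 to 0.65 in lower-dose rats. It fell below the minimum fold without rat 3150, 3057, 3007 or 3119. Its call was also lost when each group of 3 rats was entered as a random block. Without rat 3119 Psmb9 was also not called at 2000 mg/kg and 48 h (0.45, adjusted p = 0.0533).

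Psmb10 was called in no group. At 48 h it had -0.24, 0.03 and -0.08 at 50 mg/kg, 0.23, -0.50 and 0.14 at 150 mg/kg, -0.42, -0.32 and -0.42 at 1500 mg/kg, and -0.55, -0.12 and -0.23 at 2000 mg/kg. Its spread within groups was wide, with an SD of 0.54 at 1500 mg/kg at 6 h and of 0.62 at the same dose at 24 h. Set beside the constitutive subunit that it replaces, Psmb10 minus Psmb7 was -1.69 ± 0.32 at 1500 mg/kg and -0.94 ± 0.32 at 2000 mg/kg at 48 h, whereas Psmb9 minus Psmb6 was 0.86 ± 0.22 and 0.57 ± 0.26 and Psmb8 minus Psmb5 was 0.55 ± 0.18 and 0.27 ± 0.18 (SD, n = 3 each). At 48 h Psmb9 minus Psmb6 and Psmb8 minus Psmb5 were above 0 in all 6 upper-dose rats, and Psmb10 minus Psmb7 was below 0 in all 6. The first 2 differences were above 0 in every lower-dose rat at 48 h too. Psmb9 minus Psmb6 averaged 0.41 at 50 mg/kg and 0.76 at 150 mg/kg, and Psmb8 minus Psmb5 averaged 0.26 and 0.86. Psmb10 minus Psmb7 averaged 0.13 and 0.15 at these doses. In the annotation Psmb8 and Psmb9 lie on chromosome 20 on either side of Tap1, next to Tap2, while Psmb10 lies on chromosome 19.

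**Figure D4:**
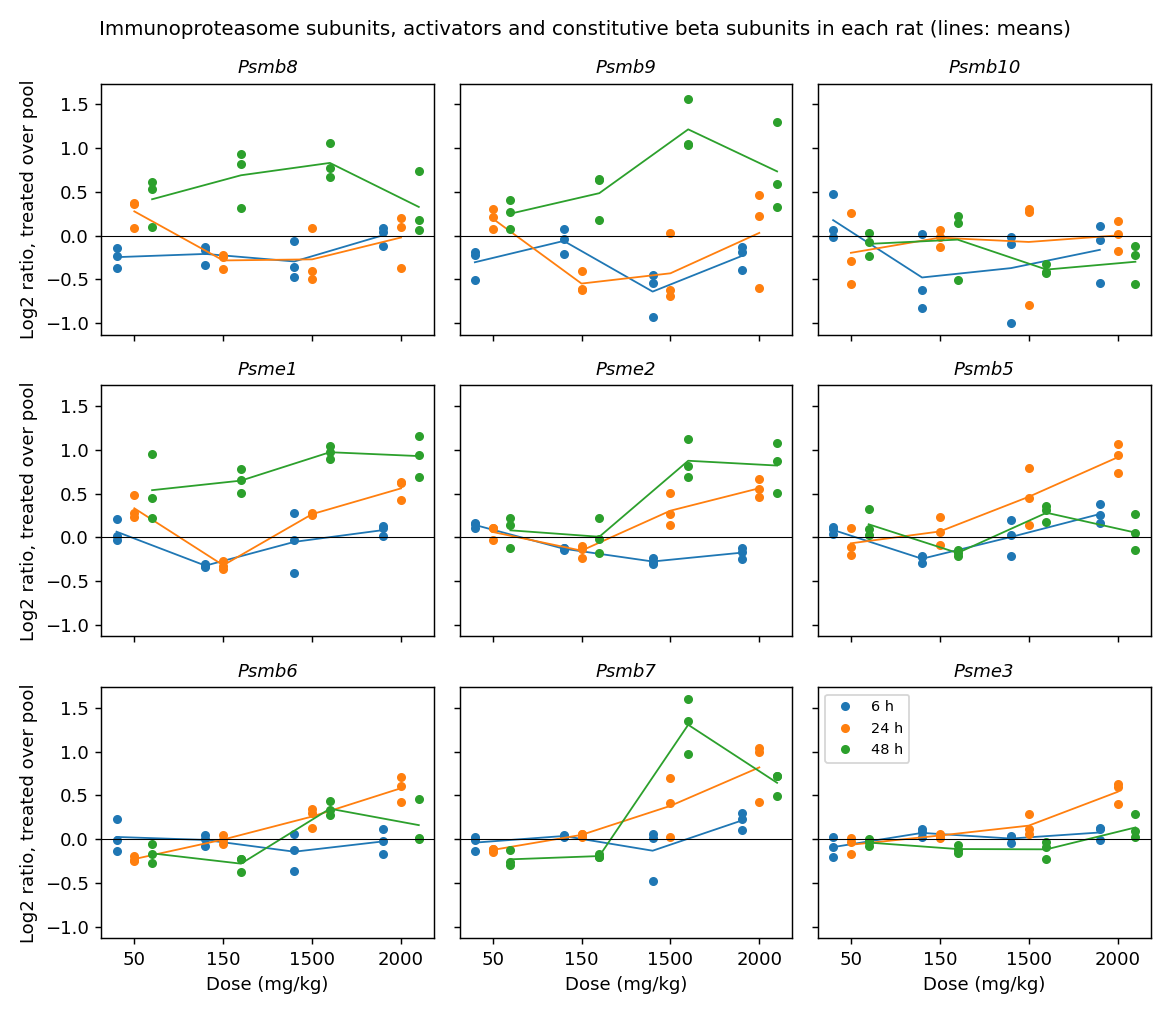
Log2 ratio of treated rat over control in each rat (points, with lines through the group means) by dose in mg/kg, at 6 h (blue), 24 h (orange) and 48 h (green), for the immunoproteasome subunits Psmb8, Psmb9 and Psmb10, the activators Psme1, Psme2 and Psme3 and the constitutive catalytic subunits Psmb5, Psmb6 and Psmb7. Psmb9 reaches 1.56 at 1500 mg/kg at 48 h and is below 0 in 2 of 3 rats of that dose at 24 h; Psmb5 is highest at 2000 mg/kg at 24 h.

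Psme1 and Psme2, which join in a single interferon-inducible cap on the core, were both higher at 48 h and differed at the lower doses. Psme1 at 48 h had 0.45, 0.22 and 0.95 at 50 mg/kg, 0.51, 0.78 and 0.65 at 150 mg/kg, 0.90, 1.04 and 0.98 at 1500 mg/kg, and 0.94, 0.68 and 1.16 at 2000 mg/kg. It was above control in all 12 rats and called at 150, 1500 and 2000 mg/kg (adjusted p = 0.000179, 1.4e-08 and 2.57e-08), with a dose difference of 0.36 ± 0.10 below the minimum fold. Without rat 3058 the 150 mg/kg mean was 0.58, just below 1.5-fold.

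Psme2 at 48 h had 0.69, 1.13 and 0.81 at 1500 mg/kg and 0.87, 0.51 and 1.08 at 2000 mg/kg, against 0.14, -0.12 and 0.23 at 50 mg/kg and -0.18, 0.22 and -0.01 at 150 mg/kg. The doses did not overlap and differed by 0.80 ± 0.09 (1.74-fold, adjusted p = 3.9e-08). At 24 h, when Psmb9 ran from -0.69 to 0.46 in the upper-dose rats, Psme2 was between 0.14 and 0.67 in all 6 upper-dose rats. There it had 0.51, 0.27 and 0.14 at 1500 mg/kg and 0.55, 0.46 and 0.67 at 2000 mg/kg, and the dose difference of 0.48 ± 0.09 stayed below the minimum fold. Of the remaining activators, Psme3, the nuclear form, had a dose difference of 0.36 ± 0.06 at 24 h and 0.08 ± 0.06 at 48 h, and Psme4 had 0.06 ± 0.09 and -0.08 ± 0.09. The inhibitor Psmf1 had 0.24 ± 0.09 at 24 h and -0.10 ± 0.09 at 48 h. None of these 3 was called in any group.

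Of the 5 assembly chaperones none was called between dose levels at 24 h, and their median difference was 0.01. At 48 h the median was 0.28, and by adjusted p alone 4 were higher and 1, Psmd9, was lower. Psmd9, which helps to build the ATPase ring, was the only one of the 41 genes called lower between the upper and the lower doses. It had -0.39, -0.26 and -0.62 at 1500 mg/kg and -0.72, -0.84 and -0.28 at 2000 mg/kg, against -0.03, 0.20 and 0.03 at 50 mg/kg and -0.09, 0.23 and 0.08 at 150 mg/kg. The doses did not overlap and the difference was -0.59 ± 0.08 (1.5-fold lower, adjusted p = 1.39e-06). The size was at the threshold, and without rat 3150, 3058, 3008, 3117 or 3118 it was -0.56 to -0.53. Its call at 2000 mg/kg alone was lost without rat 3117 or 3118.

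Psmg4, a chaperone of the alpha ring, was higher late. It averaged 0.79 ± 0.25 at 1500 mg/kg and 0.94 ± 0.32 at 2000 mg/kg at 48 h (SD, n = 3 each), and 0.11 ± 0.14 and 0.25 ± 0.22 at 24 h. Over both doses it rose by 0.68 ± 0.11 between 24 and 48 h (adjusted p = 2.45e-05). Psmd5 was called at 2000 mg/kg at 24 h and at both upper doses at 48 h, but its 2 probes disagreed: at 2000 mg/kg and 48 h one gave 0.26 and the other 1.61. Psmg2 and Psmd10 were called in no group. Psmc3ip, the recombination factor, was higher at 48 h at the upper doses, with 0.99, 1.13 and 0.81 at 1500 mg/kg and 0.90, 1.21 and 1.09 at 2000 mg/kg, against -0.27, -0.17 and -0.32 at 50 mg/kg and 0.10, -0.12 and -0.07 at 150 mg/kg. Its difference was 1.16 ± 0.08 (2.24-fold, adjusted p = 3.56e-11).

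At the lower doses 5 genes were called, all at 48 h. At 50 mg/kg these were, with SDs over 3 rats, Psmd7 (0.92, 0.66 and 0.54; mean 0.71 ± 0.19, adjusted p = 3.36e-05), Psmd12 (0.76, 0.52 and 0.79; mean 0.69 ± 0.15, adjusted p = 0.000283) and Psma1 (0.68, 0.50 and 0.69; mean 0.62 ± 0.11, adjusted p = 0.000346). The same 3 genes were the ones called at 2000 mg/kg and 6 h, with means of 0.62 ± 0.05, 0.92 ± 0.07 and 0.61 ± 0.12 (SD, n = 3 each). Psma1 at that time fell below the minimum fold without rat 3095 (0.55). Psmd7 was above control already at 6 h at 50 mg/kg, with 0.68, 0.57 and 0.31, and Psmd12 averaged 2 probes, which at 50 mg/kg and 6 h gave -0.09 and 0.77. At 150 mg/kg the called genes were Psmb8 and Psme1, given above. When each group was fitted on its own 3 rats, 0 genes were called at 50 and at 150 mg/kg at 48 h.

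Between the top doses, 2000 minus 1500 mg/kg, 0 of 41 genes were called at 6 h (0.376% of features higher, 0.237% lower). There 9 genes had an unadjusted p below 0.05, as had 2814 of 17299 features. At 24 h the count was also 0 (2.5% higher, 2.68% lower), although 35 of the 41 differences were above 0, with a median of 0.26. Of all 17299 features, 8947 were above 0, with a median of 0.01. Among the 41 genes 21 had an unadjusted p below 0.05, as had 4691 of the features. At 48 h, 0 were higher (2.08%) and 2 lower (3.32%). Psmb7 differed by -0.66 ± 0.16 (adjusted p = 0.00621) and Psma2 by -0.62 ± 0.15 (adjusted p = 0.00597). Psma2 had 0.23, 0.12 and 0.74 at 2000 mg/kg, against 1.06, 1.01 and 0.89 at 1500 mg/kg. Psmb7 was not called without rat 3008, and Psma2 was not without rat 3117 or rat 3118.

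Over time at 1500 and 2000 mg/kg, 9 genes were higher at 24 than at 6 h, against 5.77% of features, and 0 lower, against 4.37%. The largest were Psmc4 (0.95 ± 0.12), Psma5 (0.81 ± 0.09), Psmd6 (0.72 ± 0.08), Psma2 (0.67 ± 0.10) and Psmb3 (0.67 ± 0.10), and without rat 3020 the count was 15. From 24 to 48 h, 4 were higher (5.72%) and 0 lower (3.36%): Psmb9, Psmb8, Psmg4 and Psmc3ip, none of them a constitutive subunit of the core or regulator. The change of Psmc3ip, 0.60 ± 0.08, fell below the minimum fold without rat 3020, 3106, 3107, 3007 or 3118. The 27 constitutive genes had a median change of -0.07 from 24 to 48 h, between -0.52 and 0.37, and 0.51 from 6 to 24 h. The dose difference itself was larger at 24 than at 6 h for 11 genes (6.57% of features) and smaller for 0 (6.5%), led by Psma5 (0.83 ± 0.13), Psmd4 (0.78 ± 0.10), Psmd6 (0.73 ± 0.11), Psmc1 (0.73 ± 0.13) and Psme2 (0.71 ± 0.12). With arrays scaled to equal spread, 1 gene was called between 24 and 6 h, 1 between 48 and 24 h, and 5 for the dose difference between 24 and 6 h. The shares of all features, both directions together, were then 5.43%, 4.22% and 10.6%, so that these counts were near that background or below it. For Psmc1 1 rat at 50 mg/kg and 24 h had no value. From 24 to 48 h the dose difference became larger for 1 gene, Psmc3ip (3.86% of features), and smaller for 1, Psmd4 (2.6%).

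As a description, each gene was correlated over the 36 rats with the median of the other constitutive subunits; the points share dose, time and control pool. Psmd6 (Pearson r = 0.96), Psmb4 and Psma5 (both 0.95), Psmb3 (0.94), Psma3 and Psma4 (both 0.93) and Psma6 (0.90) followed it most closely. Psmb9 (0.47) and Psmb8 (0.34) followed it less. Psmd3 (-0.00), Psmb10 (-0.10), Psmd9 (-0.35) and Psmc3 (-0.53) did not. Each of these 4 rests on 1 probe.

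Other genes of the pathway were taken as lists, of which part was on the array. Between dose levels, the shares of all features called higher and lower were 4.67% and 3.46% at 6 h. They were 6.56% and 3.37% by 24 h, then 8.26% and 4.09% by 48 h. A count of 1 gene in a list of 14 is near these shares. Of 8 partners of the proteasome measured (of 13 listed), 0 were higher and 1 lower at 6 h. At 24 h 2 were higher and 1 was lower, and at 48 h 2 were higher. Uchl5, a deubiquitinase bound to the 19S base, was 0.69 ± 0.11 at 24 h and 0.85 ± 0.11 at 48 h, and Adrm1, its receptor there, 0.68 ± 0.21 at 24 h. Sem1, the smallest lid subunit, was 0.66 ± 0.07 at 48 h. Akirin2, which in human cells brings proteasomes into the nucleus, was lower, by -1.98 ± 0.29 at 6 h and -1.07 ± 0.29 at 24 h (adjusted p = 1.17e-05 and 0.00574). At 6 h its means were -0.83 at 1500 mg/kg and -2.28 at 2000 mg/kg. Against these stood -0.28 at 50 mg/kg and 1.13 at 150 mg/kg, with no call at either lower dose. At 48 h its dose difference was -0.02 ± 0.29 (adjusted p = 0.974), with means of 0.48 at 2000 mg/kg, which was not called, and -1.83 at 1500 mg/kg, which was called lower, 2.32 apart. Pomp, which matures the core, stayed below the minimum fold (0.29 at 24 h and 0.48 at 48 h).

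Of 14 shuttle and extraction factors measured (of 17), 1 was higher and 2 lower at 6 h, 4 higher at 24 h and 1 higher at 48 h. Zfand2a, a stress-inducible protein that binds the proteasome, led with 1.38 ± 0.39 at 6 h, 3.05 ± 0.39 at 24 h (8.26-fold, adjusted p = 6.38e-07) and 1.37 ± 0.39 at 48 h. Bag3, a co-chaperone that sends proteins to autophagy, was 2.19 ± 0.22 at 24 h. Nploc4, a cofactor of the segregase Vcp, was -1.05 ± 0.19 at 6 h. The median of the list was 0.11 at 6 h, 0.36 at 24 h and 0.01 at 48 h. The single ubiquitin-supply gene measured (of 6), Uba6, was 0.60 ± 0.12 at 48 h.

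Of 6 antigen-processing genes measured (of 10), 1 was higher at 24 h and 2 at 48 h. Irf1, a transcription factor of the interferon response, was higher at 24 h by 1.01 ± 0.08 (2.02-fold, adjusted p = 3.56e-10), with means of 0.20 at 1500 mg/kg and 1.46 at 2000 mg/kg. Tap1, which lies between Psmb8 and Psmb9, was 0.78 ± 0.31 at 48 h (adjusted p = 0.0474), and Erap1, which trims peptides, 0.64 ± 0.10. The median of the list was -0.00 at 6 h, 0.11 at 24 h and 0.50 at 48 h.

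Markers of other cells were read beside these changes. At 48 h the dividing-cell list separated the doses: 5 of 6 measured genes were higher, and its median per rat was 1.81 to 2.77 in upper-dose and -0.09 to 0.10 in lower-dose rats. At 24 h, where the median dose difference of the constitutive subunits was largest, 2 of the 6 were higher, by up to 1.91, and the median ran from -0.31 to 0.78 in upper-dose and from -0.29 to 0.08 in lower-dose rats. Of the 10 macrophage and monocyte markers measured, 4 were higher at 48 h, and their median ran from -0.06 to 0.22 in upper-dose and from -0.09 to 0.07 in lower-dose rats. At 24 h 2 of them were higher and 1 lower, with a median of -0.25 to -0.04 in upper-dose and -0.21 to -0.01 in lower-dose rats. Of 3 neutrophil markers 2 were higher at 48 h, with a median of 0.00 to 1.94 in upper-dose and -0.05 to 0.24 in lower-dose rats. At 24 h 1 was higher, with a median of -0.15 to 1.55 in upper-dose and -0.23 to 0.04 in lower-dose rats. Of 5 stellate and fibroblast markers 2 were higher at 48 h, with a median of 0.23 to 0.91 in upper-dose and -0.10 to 0.58 in lower-dose rats. At 24 h 1 of these 5 was lower, and their median ran from -0.63 to -0.23 in upper-dose and from -0.15 to 0.34 in lower-dose rats. Of 8 T and NK cell markers none was called at 48 h (0), of 3 B cell markers 1 was lower, and of 5 endothelial and 4 cholangiocyte markers 0 were called. At 24 h 0 genes of these 4 lists were called. Of 6 hepatocyte markers 1 was higher and 2 were lower at 48 h, and 2 were higher at 24 h. They had a median of -0.68 to -0.11 in upper-dose and -0.12 to 0.20 in lower-dose rats at 48 h, and of -0.15 to 0.48 in upper-dose and -0.13 to 0.15 in lower-dose rats at 24 h. The part of these cells in the proteasome values was not tested.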

How the data were processed

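Liver RNA of 36 treated rats was hybridised against control RNA on 72 Agilent two-colour arrays, 2 dye-swapped arrays for each rat. The deposited values are log10 ratios, which the authors made with Agilent Feature Extraction software, per the labels; the sources used here name no version, setting or within-array normalization. Deposited values were capped at 2 in either direction (23 values), 0.211% were missing and 2.67% were exactly 0. Medians of the arrays ran from -0.0191 to 0.0190 and their SDs from 0.0654 to 0.276; how they were centred is unknown. The log10 scale follows from the cap and the software, and the direction, red over green, is likely and not stated. Same-orientation arrays within a group had correlations of at least 0.0937. The 2 turned arrays of a rat correlated below 0 over all probes in 15 of 36 rats, the lowest at -0.431; a dye effect that is equal on both arrays cancels in their mean. The number of arrays limits the precision, and how bright the probes were is unknown.

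Ratios in log10 were multiplied to log2, turned by dye, averaged over the 2 arrays of a rat and then over the probes of a symbol. Of 20500 probes, 12750 had 1 gene symbol, 5 several and 7745 none. The 12 group means were fitted in 1 model with limma 3.58.1 in R 4.3.3 (eBayes, residual degrees of freedom 24, prior 3.277) over 17299 of 17403 features, with Benjamini-Hochberg adjustment. Tests are two-sided. Each control is taken as 1 sample, so p-values leave out the spread between control rats. Group values are mean ± SD, differences are ± the model's SE. In data simulated for the 48 h dose difference over 15532 genes, 17% of true log2 changes of 0.5 were called with the minimum fold, 69% without it, and 93% of changes of 1. A log2 change of 0.5 is itself below 1.5-fold, so a low share with the minimum fold follows from the rule. The simulated noise was independent between rats, with no spread shared within a group.

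The members, classes and lists were chosen with earlier results of these data known. Named with values per rat were the 2 called genes with the largest change in each class between dose levels, the measured Psmb8 to Psmb10, Psme1 and Psme2, and genes called at 50 or 150 mg/kg; in other comparisons the called genes with the largest change, at most 5 in each direction; genes of other lists where called at 2-fold or more in a dose contrast. Genes named outside this rule (Psmb2, Psmb6, Psmc3, Psmd2, Psmd3, Psmd8, Psme3, Psme4, Psmf1, Psmd5, Psma2 by rat, Uchl5, Adrm1, Sem1, Pomp, Uba6, Tap1 and Erap1) were chosen after their values were seen. Alternatives covered array scaling, the minimum fold, a dye term with the rat as a block, single probes, exact zeros, missing rats, each rat left out, the group as a random block, 50 mg/kg alone as the lower level, and each group fitted alone. Every rat has its own number, which pairs no samples.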

Additional observations from a re-analysis of the deposited data

Results flagged for a closer look

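The effect of dose, as upper minus lower doses, differed between times for 12 of the 41 genes by a test of the difference itself (limma, adjusted over 17299 features). Between 24 and 6 h it was larger at 24 h for the alpha-ring subunits Psma5 (log2 0.8256, adjusted p = 2.74e-05), Psma6 (0.6445, adjusted p = 0.000844) and Psma2 (0.6362, adjusted p = 0.00217). The same held for the catalytic beta subunits Psmb6 (0.6272, adjusted p = 0.000227) and Psmb7 (0.594, adjusted p = 0.00662). Among 19S genes it held for the ATPases Psmc1 (0.7285, adjusted p = 0.000236) and Psmc4 (0.695, adjusted p = 0.005), for the ubiquitin receptor Psmd4 (0.7782, adjusted p = 3.2e-06) and for the lid subunits Psmd6 (0.7311, adjusted p = 1.36e-05) and Psmd13 (0.6998, adjusted p = 0.00116). It also held for the activator Psme2 (0.7078, adjusted p = 0.000109). In all, 11 of the 41 genes were called larger at 24 h and 0 smaller, against 6.57% and 6.5% of all features.

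Between 48 and 24 h the dose effect was larger at 48 h for Psmc3ip (0.6845, adjusted p = 0.000297), the recombination factor outside the proteasome, and smaller at 48 h for Psmd4 (-0.6093, adjusted p = 0.000233), the ubiquitin receptor. Of all features 3.86% were called larger and 2.6% smaller, so that 1 of 41 genes each way is near the background. When each group of 3 rats was entered as a random block, 7 of the 11 calls between 24 and 6 h held and those of Psma2, Psmb7, Psmc4 and Psmd13 were lost; between 48 and 24 h that of Psmd4 held and that of Psmc3ip was lost.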

How the results depend on the processing

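No named call changed sign (0 reversed) under array scaling, a dye term, exact zeros as missing, features with all 36 rats, the group as a random block, 50 mg/kg alone as the lower level, each group fitted alone or rats left out. Single probes differed: for the dose difference, Psmd2 gave -0.01 and 0.68 at 24 h and -0.03 and 0.53 at 48 h, and Psmd5 gave -0.01 and 0.73 at 48 h. With arrays scaled to equal spread the called genes numbered 1 in each 6 h group (main counts 0, 0, 1 and 3 from low to high dose). They were 2, 2, 2 and 10 by 24 h (main 0, 0, 10 and 22), then 6, 6, 11 and 10 by 48 h (main 3, 2, 22 and 16). At 6 h the shares of all features called were then 3.23%, 2.76%, 3.51% and 5.23%, both directions together. Those at 24 and 48 h are given above. The scaled dose contrasts gave 0, 5 and 3 (main 0, 13 and 8), against 6.37%, 6.01% and 7.45% of all features. For 24 minus 6 h the count was 1 against 5.43% (main count 9), and for 48 minus 24 h it was 1 against 4.22% (main count 4). The change of the dose effect by 24 h gave 5 against 10.6% (main count 11). For 2000 minus 1500 mg/kg at 48 h it was 0 against 1.29% (main count 2). Of 70 named calls, 27 were lost. Without a minimum fold the 6 h groups gave 1, 0, 7 and 12, the 24 h groups 12, 0, 31 and 34, and the 48 h groups 16, 11, 34 and 32. Of 17299 features, adjusted p alone marked 549 as higher and 106 as lower at 50 mg/kg and 6 h. At 6 h it marked 2489 and 2555 at 1500 mg/kg, and 2971 and 2593 at 2000 mg/kg. With both directions together, the 6 h counts were therefore not above the background. By direction, 10 of the 41 genes were higher and 2 lower at 2000 mg/kg and 6 h. Those 10 are a larger share than the 2971 of 17299 features. At 150 mg/kg adjusted p alone marked 26 and 25 features at 24 h, and 881 and 260 at 48 h. For the other 24 and 48 h groups the shares marked higher are given above. By adjusted p alone the dose contrasts gave 7, 31 and 28. At 6 h 2821 features were higher and 2854 lower in that contrast. The top doses differed in 1, 5 and 5 genes, with 132, 1202 and 1351 features higher and 80, 929 and 1217 lower. The times differed in 29 and 15 genes, with 2757 and 2637 features higher and 2740 and 3101 lower. The dose effect between times differed in 23 and 11 genes, with 2183 and 1103 features higher and 2167 and 1204 lower. Each group fitted alone gave 0 genes at 1500 mg/kg and 6 h and at 50 and 150 mg/kg and 48 h. With the group as a random block, the dose effect differed between times for 7 genes (24 and 6 h) and for 1 (48 and 24 h). The dose contrast kept 13 of 13 calls at 24 h and 7 of 8 at 48 h, where that of Psmb9 was lost. A dye term, exact zeros as missing and features with all 36 rats cost no named call (0 of 70, 70 and 64), and 50 mg/kg alone as the lower level cost 2 of 17.

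Leaving out each rat in turn gave ranges of 0 to 1 at 50 mg/kg and 6 h, 0 to 2 at 50 mg/kg and 24 h, 3 to 5 at 50 mg/kg and 48 h, 1 to 3 at 150 mg/kg and 48 h, 6 to 17 at 1500 mg/kg and 24 h, and 11 to 21 at 2000 mg/kg and 48 h. The dose contrast gave 11 to 18 at 24 h and 6 to 9 at 48 h. The top doses differed in 0 to 1 genes at 6 h, 0 to 2 at 24 h and 1 to 4 at 48 h, for 24 minus 6 h 8 to 15, and for the dose effect between times 9 to 12 and 2 to 5. The cause of these shifts was not tested. No paired analysis was possible because every rat has its own number.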
